A study of Danio rerio with 16 samples.

Results

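The angiopoietins and their receptors, the Tie tyrosine kinases, were followed here in open chromatin of the zebrafish dorsal aorta. The 5 genes angpt1, angpt2a, angpt2b, tek and tie1 were taken as the family, and every differentially open peak whose nearest gene carried one of these symbols was counted as a member. This gave 8 of the 9466 listed peaks, nearest to 3 of the 5 genes: 4 to angpt1, 2 to angpt2b and 2 to tek. No listed peak carried the symbol angpt2a or tie1. The share of all annotated genes that had a listed peak was not computed. How usual such counts of genes with a peak are was therefore not assessed, here or below.

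Accessibility was read out with ATAC-seq, in which the Tn5 transposase inserts sequencing adapters into accessible DNA. All embryos carried TgBAC(runx1P2:Citrine) and Tg(kdrl:mCherry), with Citrine under runx1 regulatory elements on a bacterial artificial chromosome and mCherry under the endothelial kdrl promoter, and were sorted as pools of whole embryos at 28 to 30 hours post fertilisation (hpf), with the libraries labelled Wt and no treatment named. From these, 5 sorted populations gave 3 libraries each, which with 1 genomic DNA control makes 16. The lists used here compare mCherry+ cells with high Citrine (DP-R1hi), labelled haemogenic endothelium (HE), with mCherry+ cells with low Citrine (DP-R1lo), labelled aortic endothelium and called aortic roof endothelium (ARE) in the study. The study counts sprouting inter-somitic vessels as part of the ARE, so DP-R1lo is not the aortic roof alone. The DP-R1lo gate has a limit as a model, since the study attributes its weak Citrine to protein left from earlier stages. Both populations are defined by the amount of a stable reporter and not by runx1 itself. The study did find runx1 and Citrine RNA reads well correlated in its sorted populations, and cmyb and gfi1aa RNA only in DP-R1hi. Sorted libraries came from 2000 to 3000 cells each. The authors left 1 outlying replicate out of each of these groups, and the lists give 1 mean per group over the remaining 2 replicates. There are therefore no replicate values, no error and no test here, and library depth is unknown.

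Angiopoietins are secreted ligands of the Tek receptor, also known as Tie2, on endothelial cells. In mammals Angpt1 is the activating ligand, which signals through PI3-kinase and Akt to stabilise vessels and keeps the Foxo1 transcription factor out of the nucleus, whereas Angpt2 mostly opposes it and is itself a Foxo1 target. Tie1 binds angiopoietins poorly and acts together with Tek. In mouse bone marrow, Tek on blood stem cells and Angpt1 have been linked to stem cell quiescence.

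A level is the authors' mean log2 concentration, that is the log2 of normalised reads in the peak, and a difference is the DP-R1hi level minus the DP-R1lo level. The peaks higher in DP-R1hi (HE-specific) number 3864 and those higher in DP-R1lo (ARE-specific) 5602, or 40.8% and 59.2% of the lists. Of the member peaks, 3 of 8 were HE-specific and 5 were ARE-specific. A lower level of a bulk population may reflect fewer cells with an open site or less opening per cell, and these cannot be told apart. The lowest level listed was −0.14 in DP-R1hi and −0.27 in DP-R1lo, and −0.14 corresponds to 0.908 normalised reads. A fold against it is given only as it would be with that level raised 3 times.

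**Figure D1:**
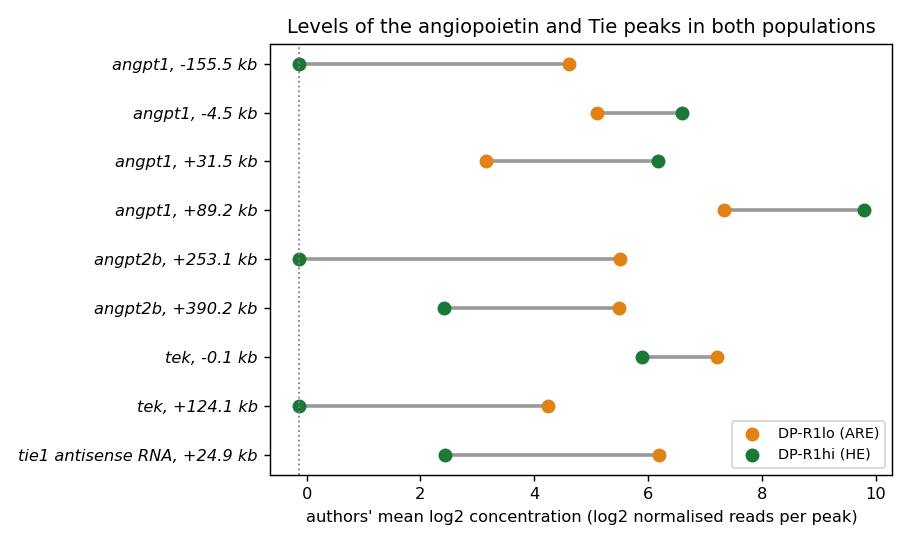
Mean log2 concentration (x axis, log2 normalised reads per peak) of each member peak in DP-R1hi (green) and DP-R1lo (orange), 1 mean per group without error, named by nearest gene and distance from its transcription start site (TSS) in kb, with the dotted line at the lowest level listed for DP-R1hi. The 3 angpt1 peaks within 100 kb are higher in DP-R1hi, the other 5 member peaks are higher in DP-R1lo, and the bottom line is the peak of the tie1 antisense RNA, which is not a member.

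The ligand angpt1 had 3 HE-specific peaks around and inside the gene and 1 ARE-specific peak far upstream. All 4 distances given by the annotation lead back to 1 start, at position 47366291 of chromosome 19 (GRCz10), with the gene on the minus strand (transcript NM_131813). No listed peak was annotated to its promoter.

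The peak with the most signal lay in intron 4 of 8 of angpt1 (chromosome 19, 47276726 to 47277399), 89229 bp downstream of the TSS. Its level was 9.80 in DP-R1hi and 7.33 in DP-R1lo, or 891 against 161 normalised reads, a difference of 2.47 and a 5.54-fold higher mean in DP-R1hi. It was thus accessible in both populations. Per kb of peak width, its DP-R1hi level of 10.37 was above that of 99.4% of the HE-specific peaks, and its DP-R1lo level of 7.90 was above that of 94.8% of them. The difference itself was not extreme, being larger than in 45.6% of the HE-specific peaks.

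The angpt1 peak in intron 1 of 8 (chromosome 19, 47334598 to 47335007), 31489 bp downstream of the TSS, had a level of 6.18 in DP-R1hi and 3.15 in DP-R1lo. This is 72.5 against 8.88 normalised reads, a difference of 3.03 and an 8.17-fold higher mean in DP-R1hi. Its DP-R1hi level per kb, 7.47, was near the middle of its list (above 46.7%), and so was its difference (above 56.0%). Of the 3 angpt1 peaks higher in DP-R1hi, this was the one with the largest difference and the lowest DP-R1lo level.

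The peak upstream of angpt1 (chromosome 19, 47370566 to 47370973) was intergenic and 4478 bp from the TSS. Its level was 6.59 in DP-R1hi and 5.11 in DP-R1lo, or 96.3 against 34.5 normalised reads. The difference of 1.48, a 2.79-fold higher mean, was larger than in 18.9% of the HE-specific peaks. It was the closest of the angpt1 peaks to the gene start and the one with the smallest difference.

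The distal angpt1 peak (chromosome 19, 47521594 to 47521902) had the opposite direction. It was intergenic, 155457 bp upstream of the TSS and 150620 bp from the next angpt1 peak, with a level of 4.62 in DP-R1lo and the lowest listed level, −0.14, in DP-R1hi. The difference was −4.76, and with the DP-R1hi level raised 3 times the DP-R1lo mean would be 9.03-fold higher. Its DP-R1lo level per kb, 6.31, was above that of 17.9% of the ARE-specific peaks, so that the site was weak even where it was open. A peak assigned to sdc2, which codes for the heparan sulphate proteoglycan syndecan 2, lay 40594 bp beyond it. That sdc2 peak was higher in DP-R1hi (6.40 against 4.17, a difference of 2.23), and it was the only other listed peak within 100 kb of an angpt1 peak. The nearest-gene assignment of the distal peak to angpt1 is by distance alone.

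Genes with several listed peaks were common, and many had peaks of both directions. Of 5023 genes with a listed peak, 510 (10.2%) had at least 4, and of the 248 with exactly 4, 154 (62.1%) had peaks in both lists and 37 (14.9%) had 3 HE-specific peaks, as angpt1 did. Within 100 kb of the TSS, 674 genes had at least 3 listed peaks. In 68 of these (10.1%) all were HE-specific, angpt1 among them, and in 259 (38.4%) all were ARE-specific.

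The ligand gene angpt2b had 2 listed peaks, both intergenic, both ARE-specific and both far downstream of the gene. Their distances place its TSS at position 36212573 of chromosome 19 (GRCz10), on the plus strand. The first peak (36465518 to 36465909), 253140 bp from the TSS, had a level of 5.50 in DP-R1lo and the lowest listed level, −0.14, in DP-R1hi. The difference was −5.64, and with the DP-R1hi level raised 3 times the DP-R1lo mean would be 16.6-fold higher. Its DP-R1lo level per kb, 6.85, was above that of 42.8% of the ARE-specific peaks.

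The second angpt2b peak (36602628 to 36602965), 390223 bp from the TSS and 136718 bp beyond the first, had a DP-R1lo level almost equal to that of the first, 5.49. In DP-R1hi it kept a level of 2.42, so that the difference was −3.07, an 8.40-fold higher mean in DP-R1lo. The angpt2b peaks were thus similar in DP-R1lo. Their DP-R1hi levels correspond to 0.908 and 5.35 normalised reads. Both are low and without error, so whether the peaks differ in DP-R1hi is not resolved. The angpt2b peaks lay farther from their TSS than 95.7% and 98.2% of the ARE-specific peaks, and no other listed peak was within 100 kb of either. In the order of RefSeq genes the next gene after angpt2b is csmd2, to which no listed peak was assigned, and distance alone ties these sites to angpt2b. The next listed peak beyond the second, 299793 bp away and assigned to cx30.9, was ARE-specific (1.27 in DP-R1hi against 5.92 in DP-R1lo). The peaks listed nearest on the other side of the gene were assigned to col8a2 (6.37 in DP-R1hi against 3.74 in DP-R1lo) and ptp4a2b (8.08 against 7.01). Both were HE-specific and lay 438551 and 563610 bp from the first angpt2b peak. From the angpt2b TSS they lay at −185.8 and −311.1 kb. The listed peak closest to that TSS was thus the HE-specific col8a2 peak, nearer than either angpt2b peak.

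The paralogue angpt2a had no listed peak, and neither did the genes next to it in RefSeq order, namely syndig1, cul9, tuba4l, agpat5, mcph1 and csmd1a. Since the lists hold only peaks that differed between the populations by the authors' test and fold filter, a gene without a peak may be open in both, closed in both or missing from the annotation, and its absence does not show equal accessibility.

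**Figure D2:**
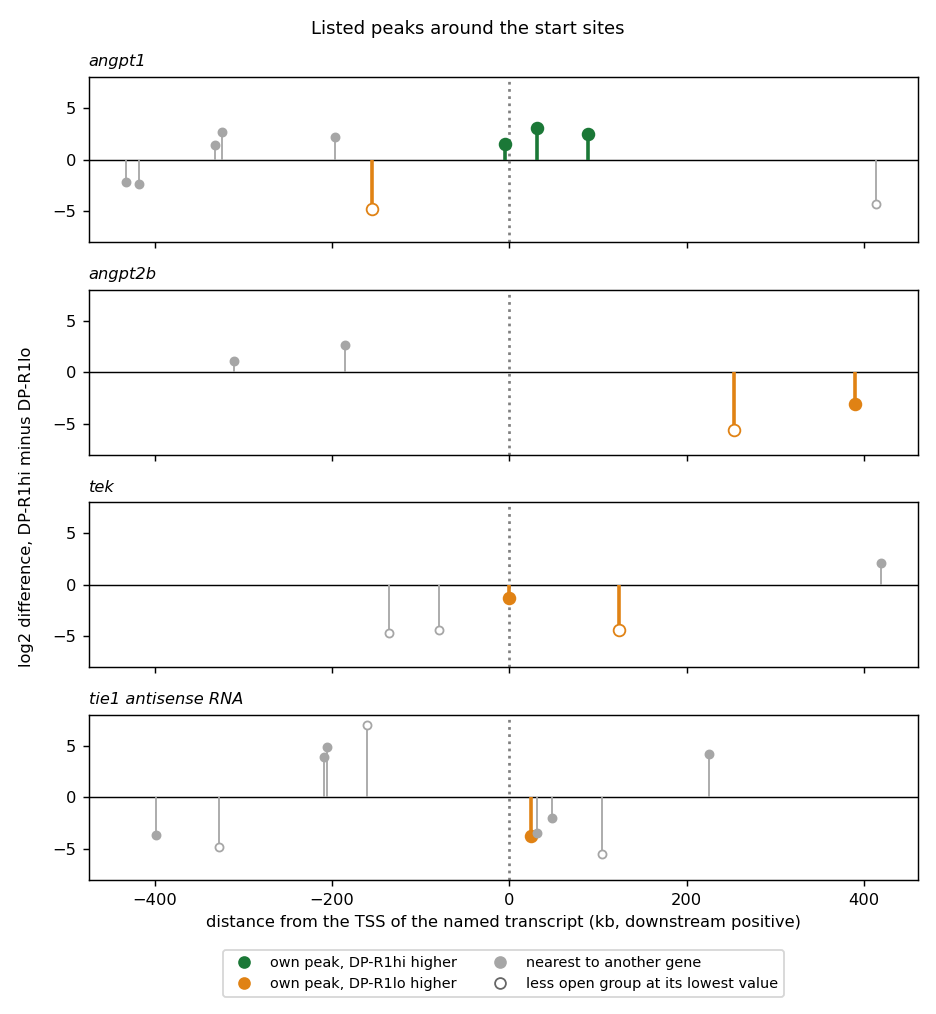
Difference in mean log2 concentration (y axis, DP-R1hi minus DP-R1lo) of every listed peak within 450 kb of the start site of angpt1, angpt2b, tek and the tie1 antisense RNA, against distance from that start (x axis, kb, downstream positive), with own peaks in colour, peaks of other genes in grey and open symbols where the less open population was at its lowest listed level. The angpt1 peaks at −4.48, 31.5 and 89.2 kb point upwards, whereas the angpt1 peak at −155 kb and those of angpt2b and tek point downwards.

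The receptor gene tek had an ARE-specific peak at its promoter and a second one downstream. The promoter peak (chromosome 5, 473740 to 474572, GRCz10) was centred 56 bp upstream of the TSS of transcript NM_131461 and was the only member peak annotated to a promoter. Its level was 7.22 in DP-R1lo and 5.90 in DP-R1hi, or 149 against 59.7 normalised reads. The difference of −1.32, a 2.50-fold higher mean in DP-R1lo, was the smallest of the 8 member peaks.

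Among ARE-specific promoter peaks, that of tek had a comparatively high level in DP-R1hi. Of the 263 ARE-specific promoter peaks, 49 (18.6%) had a smaller difference, and their median was 2.15. The DP-R1hi level of the tek promoter peak, 5.90, was above that of 72.2% of them (median 4.68), whereas 37 (14.1%) were at the lowest listed level in DP-R1hi. At 833 bp the tek promoter peak was wider than 88.9% of all ARE-specific peaks and 75.7% of the ARE-specific promoter peaks. Per kb, its DP-R1lo level of 7.48 was above that of 55.1% of the ARE-specific promoter peaks.

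The second tek peak (chromosome 5, 598139 to 598492) was intergenic, 124103 bp downstream of the TSS and 123566 bp from the promoter peak. Its level was 4.25 in DP-R1lo and the lowest listed level, −0.14, in DP-R1hi, a difference of −4.39. With the DP-R1hi level raised 3 times, the DP-R1lo mean would be 6.99-fold higher. It was among the weakest ARE-specific peaks, with a DP-R1lo level per kb of 5.75, above that of 4.93% of them.

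On the other side of the tek promoter, 79068 bp away, a peak in exon 1 of 2 of zgc:153924 had the same listed levels as the second tek peak, 4.25 in DP-R1lo and −0.14 in DP-R1hi. Weak peaks on other chromosomes, such as those assigned to tha1, myl10 and med6, had these levels too, so the match is not particular to this stretch. A peak of rnf170, 135057 bp from the tek promoter peak, was ARE-specific too, with 4.53 in DP-R1lo and −0.14 in DP-R1hi. The 4 listed peaks around tek, its own included, were therefore all higher in DP-R1lo, as were 59.2% of all listed peaks. In each but the promoter peak, DP-R1hi was at its lowest listed level. The limits of this stretch were set after the values were seen. The next listed peak on the downstream side, assigned to fubp3 and 294218 bp from the distal tek peak, was higher in DP-R1hi (7.21 against 5.10). Genes with 2 ARE-specific peaks and no other, as tek and angpt2b, numbered 458 of the 1138 with exactly 2 listed peaks (40.2%).

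The receptor gene tie1 itself had no listed peak, but its antisense transcript did. The transcript NR_036574, which carries no symbol in the lists and is named lnc.tie1 (synonym tie1AS) in RefSeq, is a long non-coding RNA that overlaps tie1 on the other strand. Its peak falls outside the rule by symbol and was chosen after its values were seen. The peak (chromosome 6, 34023820 to 34024335, GRCz10) was intergenic, 24898 bp downstream of the antisense TSS, and was ARE-specific with a level of 6.19 in DP-R1lo and 2.43 in DP-R1hi. The difference of −3.76, a 13.5-fold higher mean in DP-R1lo, was larger than in 47.5% of the ARE-specific peaks. Where the start of tie1 lies relative to this peak is not given by the lists.

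The tie1 antisense peak stood at the edge of a run of ARE-specific peaks assigned to ap1m3, a gene next in line but for si:ch73-185c24.2 in RefSeq order. The nearest ap1m3 peak, 5595 bp away, had levels of 5.95 in DP-R1lo and 2.54 in DP-R1hi, close to those of the antisense peak. The ap1m3 peak 22694 bp away had 6.98 and 5.00, and the one 79535 bp away 5.31 and −0.14. On the other side the nearest listed peaks, assigned to tmem69 and 185614 to 233071 bp away, were all HE-specific, with differences of 3.94, 4.85 and 6.99, the last with DP-R1lo at its lowest listed level.

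The member peaks were then grouped by distance from the TSS. Of the 4 peaks within 100 kb of a TSS, 3 were HE-specific, all at angpt1, and 1 was ARE-specific, at the tek promoter. None of these was at the lowest listed level. All 4 peaks beyond 100 kb were ARE-specific, 1 nearest to angpt1, 2 to angpt2b and 1 to tek, and 3 of them were at the lowest listed level in DP-R1hi. In the lists, 36.6% of the ARE-specific peaks were at the lowest level in DP-R1hi (40.7% beyond 100 kb and 35.7% within), and 18.8% of the HE-specific peaks were so in DP-R1lo. Peaks beyond 100 kb made up 18.6% of all listed peaks, 18.996% of the HE-specific and 18.351% of the ARE-specific ones. In the lists as a whole, peaks beyond 100 kb were thus not more often ARE-specific than nearer ones, unlike the few member peaks.

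All 8 member peaks had an absolute difference of at least 1, as had 96.3% of the listed peaks, and 6 of 8 had one of at least 2, as had 76% of the listed peaks. The median absolute difference was 3.05 for the members and 3.41 for all listed peaks. Above the lowest listed level it was 2.47 for 5 member peaks and 2.56 for 6692 listed peaks. The median distance from the TSS was 106666 bp for the members and 31017 bp for all listed peaks. On the chromosomes that carry member peaks, HE-specific peaks made up 41.2% of the listed peaks on chromosome 19 and 41.5% on chromosome 5, close to the 40.8% of the whole.

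**Figure D3:**
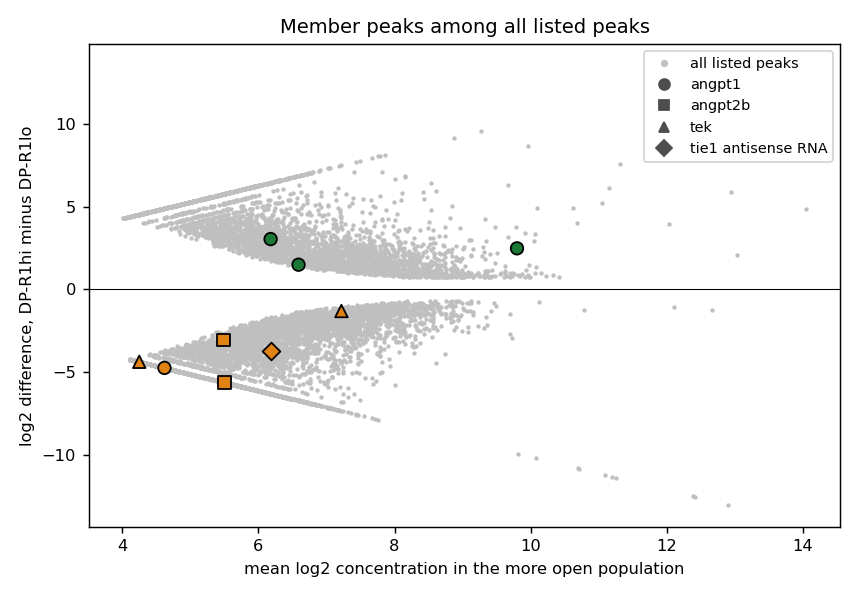
Difference in mean log2 concentration (y axis, DP-R1hi minus DP-R1lo) against the level in the more open population (x axis, log2 normalised reads per peak) for all 9466 listed peaks (grey), the member peaks and the tie1 antisense peak (green higher in DP-R1hi, orange higher in DP-R1lo). The intron 4 peak of angpt1 lies far to the right at a level of 9.80, the distal tek and angpt1 peaks lie at the left end on the line formed by peaks at the lowest listed level, and the empty band around 0 comes from the fold filter of the lists.

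Listed peaks were also counted by nearest marker gene of several cell types, which does not show which cells carry the member peaks. All 16 listed peaks of endothelial markers (kdrl, cdh5, fli1a, pecam1, etv2, erg) were ARE-specific, as were 13 of 16 of arterial and 17 of 21 of venous markers. Of all listed peaks, 59.2% were ARE-specific and 40.8% HE-specific, and the 5 of 8 ARE-specific member peaks were near that share. All 6 peaks of HE markers were HE-specific (myb, gfi1aa, gfi1ab), whereas runx1, gata2b and dnmt3bb.1 had none. Among markers of other blood cells, 3 of 3 erythroid (gata1a, klf1, alas2) and 8 of 8 myeloid peaks (spi1b, lcp1, cebpa, with none for mpx) were HE-specific. Among mural markers, all 8 peaks belonged to notch3 and were ARE-specific, and pdgfrb and tagln had none. Neuronal markers had 3 ARE-specific peaks, pax3a as the only muscle marker 2 HE-specific and 1 ARE-specific, crestin as the only neural crest marker 1 of each, and pronephric markers had none. The less open population was at its lowest listed level in 6 of the 8 notch3, 2 of the 3 neuronal, 1 of the 3 pax3a and both crestin peaks. It was so in 4 of 16 endothelial, 1 of 16 arterial, 6 of 21 venous, 1 of 6 HE and 1 of 8 myeloid peaks, and in no erythroid peak. The part of these cells in the angpt1, angpt2b and tek peaks was not tested.

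Downstream of the receptors, a list of 42 gene symbols of the Tie pathway was examined, of which 40 were in the RefSeq table and ptprba and ptprbb were not. Listed peaks were found for 16 of them, 42 peaks in all, of which 17 were HE-specific and 25 ARE-specific. The count of 16 genes has no share over all annotated genes beside it, and is not read as high or low. The HE-specific share of 40.5% was near the 40.8% of all listed peaks. The median absolute difference was 3.66, and 13 of the 42 peaks were at the lowest listed level in the less open population. Over all listed peaks the median was 3.41, and 29.3% were at the lowest listed level. Of the 16 genes, 6 had only HE-specific peaks, 5 only ARE-specific peaks and 5 had both.

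Among partners of the receptors, svep1, for a matrix protein linked to Tie signalling, and ptprb, for a phosphatase that restrains Tek, had no listed peak. The shedding proteases adam17a and adam17b and the NF-kB inhibitor tnip2 had none either. Of 12 genes for adaptors, 2 had peaks. The gene ptpn11b, for the phosphatase Shp2, had 2 HE-specific peaks with differences of 3.66 and 3.78. The one at 3.78 lay 141222 bp upstream of its TSS, in an intron of another transcript. The adaptor gene nck2b had an HE-specific peak in intron 1 of 3, 2720 bp from its TSS, with 4.33 in DP-R1hi and the lowest listed level, −0.27, in DP-R1lo, and 2 ARE-specific peaks farther along the gene, with differences of −5.01, where DP-R1hi was at its lowest listed level, and −4.12.

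The genes for subunits of PI3-kinase had 6 listed peaks, 2 HE-specific and 4 ARE-specific. This is an HE-specific share of 33.3%, beside 40.8% of all listed peaks. The catalytic subunit gene pik3cd, which in mammals is used mainly by white blood cells, had an HE-specific intronic peak at 6.24 in DP-R1hi and 2.46 in DP-R1lo. The regulatory subunit gene pik3r1 had an HE-specific intronic peak too, at 7.64 and 5.30. A further regulatory subunit gene, pik3r3b, had 4 peaks, all intergenic and ARE-specific, with differences from −4.84, where DP-R1hi was at its lowest listed level, to −2.21. Among the Akt kinases, the 2 peaks of akt1 in intron 1 of 11 were HE-specific with small differences of 1.39 and 1.14, at DP-R1hi levels of 8.53 and 7.69. The single peak of akt2 was ARE-specific, with 7.47 in DP-R1lo and 6.05 in DP-R1hi. The gene akt3a, outside the rule for named genes, had 1 HE-specific peak with a difference of 3.52.

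The Foxo genes, whose products Akt holds in the cytoplasm, had 14 of the 42 pathway peaks, 5 HE-specific and 9 ARE-specific. Their HE-specific share of 35.7% was near the 40.8% of all listed peaks. In foxo1b, 6 peaks lay in intron 1 of 2, between 13150 and 47231 bp from the TSS, 3 in each direction. In the order of their distance from the TSS, the first 2 were ARE-specific (−4.98 and −5.81), the next 3 HE-specific (5.56, 1.96 and 2.23) and the last ARE-specific again (−2.37). In the foxo1b peaks at −5.81 and 5.56 the less open population was at its lowest listed level, and with that level raised 3 times the absolute differences would be 4.23 and 3.98. All 3 peaks of foxo1a, also in intron 1 of 2, were ARE-specific, with differences from −3.57 to −1.13. The gene foxo3a had 2 HE-specific peaks near its TSS (2.27 and 0.87) and 1 ARE-specific peak (−5.04), and both peaks of foxo3b were ARE-specific (−4.01 and −5.32). DP-R1hi was at its lowest listed level in the foxo3a peak at −5.04 and the foxo3b peak at −5.32.

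The integrin genes itga5 and itgb1a, for the fibronectin receptor of endothelial cells, had 9 peaks, of which 33.3% were HE-specific, beside 40.8% of all listed peaks. In 5 of the 9 the less open population was at its lowest listed level. Of 6 nearest to itga5, 4 were ARE-specific, and only 2 of the 6 lay within 50 kb of its TSS. The less open population was at its lowest listed level in 3 of them. An HE-specific one of these, 48765 bp upstream of the TSS, had a level of 7.79 in DP-R1hi and the lowest listed level, −0.27, in DP-R1lo. Of 3 nearest to itgb1a, 2 were ARE-specific. These 2 lay 46114 and 67310 bp upstream of its TSS, in introns of another transcript. Among the junction genes on which Tie signalling acts in mammals, cdh5, for VE-cadherin, had 3 ARE-specific peaks, and its promoter peak had 8.05 in DP-R1lo and 5.93 in DP-R1hi. The cdh5 promoter thus resembled that of tek in its DP-R1hi level, 5.93 beside 5.90, with a larger difference of −2.12 beside −1.32. The claudin gene cldn5a had 1 HE-specific peak with a small difference of 1.10.

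**Figure D4:**
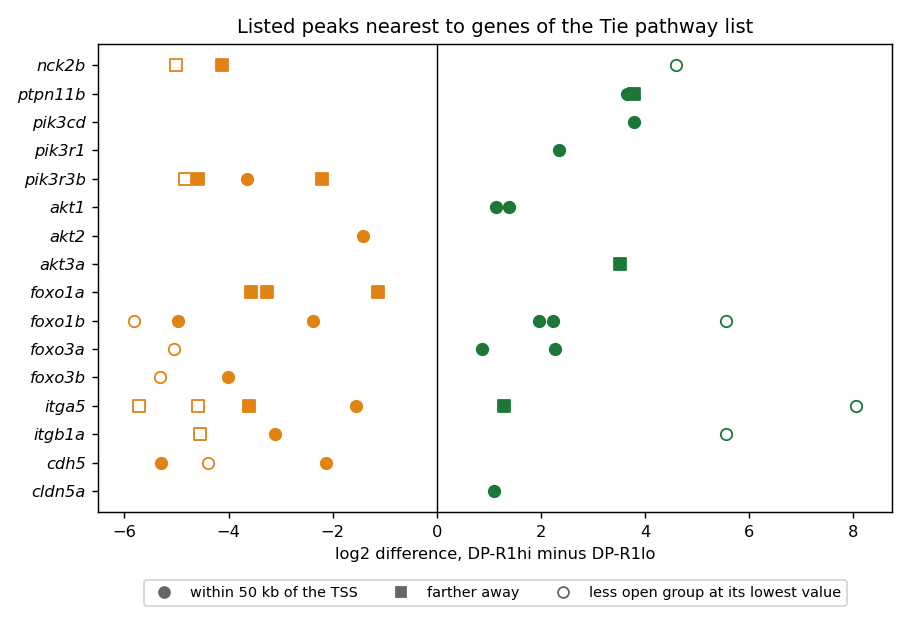
Difference in mean log2 concentration (x axis, DP-R1hi minus DP-R1lo) of the 42 listed peaks nearest to 16 genes of the Tie pathway list (y axis), circles within 50 kb of the TSS and squares farther away, open symbols where the less open population was at its lowest listed level. Peaks fall on both sides of 0. Of the genes with more than 1 peak, pik3r3b, foxo1a, foxo3b and cdh5 lie on the left only, ptpn11b and akt1 on the right only, and foxo1b has 3 on each side.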

How the data were processed

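Per the labels and the study's methods, the authors trimmed reads with Trimmomatic 0.32, aligned them to GRCz10 with BWA 0.7.12, counted with featureCounts, called peaks against genomic DNA (MACS), compared DP-R1hi with DP-R1lo by DiffBind with edgeR, annotated with HOMER 3.0 and kept absolute log2 fold changes above 0.7. The deposited lists, without header, were read as the authors' mean log2 concentration per group and over both groups (columns inferred). The overall mean equalled the log2 of the equal-weight mean of the groups within 0.01 in 9466 of 9466 peaks. A further column holds the authors' own fold changes, which were not used. The difference of the group means, planned as the alternative, took their place.

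Start sites were derived from peak centres and deposited distances. RefSeq (GRCz12tu) served for names and gene order only, and 4955 of 5194 accessions matched. Of the peaks, 249 carried no symbol. The 10 libraries of the other populations and the control are not in the lists' comparison and were not analysed here.

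Named were all member peaks, pathway and angiopoietin-like genes with a listed peak within 50 kb of the TSS or at least 3 listed peaks, and listed peaks within 100 kb of a member peak. Members and lists were chosen with earlier results of these data known. Other listed peaks more than 100 kb from a member peak, akt3a, angptl2a and the tie1 antisense RNA were named after their values were seen. The ranking step was tested on simulated data. Scripts ran under Python 3.11.15 with pandas 2.3.3, numpy 2.4.6 and matplotlib 3.10.9.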

Additional observations from a re-analysis of the deposited data

How the results depend on the processing

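No paired analysis was possible because each group has 1 deposited mean and no values per replicate, and leaving out a replicate was not possible for the same reason. The authors' fold change was not run as an alternative. The 3 HE-specific member peaks numbered 2 to 3 under every alternative run. The 5 ARE-specific member peaks became 1 within 50 kb and 1 within 100 kb of the TSS, 2 above the lowest listed level, and, in an alternative chosen after seeing the data, 2 when all listed peaks within 100 kb of the 3 start sites were counted. Counting the tie1 antisense peak, also chosen after seeing the data, gave 6. The median absolute difference of the members, 3.05, became 1.48 within 50 kb and 2.47 above the lowest level, and, chosen after seeing the data, 1.98 within 100 kb and 2.92 with the lowest levels raised 3 times. Of the pathway peaks, 11 of 17 HE-specific peaks had an absolute difference of at least 2. The 25 ARE-specific ones became 13 within 50 kb and, chosen after seeing the data, 16 above the lowest level. Of all alternatives run, 21 were rated as unchanged and 11 as moved. The 21 were all counts, within 1.5 times of the main ones, and every alternative of the median was among the 11. The ARE-specific count of the members thus rests on distal peaks and on peaks at the lowest level, whose true signal these lists do not resolve. Of the 25 ARE-specific pathway peaks, 22 had an absolute difference of at least 2.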

Other observations

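Angiopoietin-like genes, relatives of the angiopoietins whose products do not bind Tie receptors, had 5 listed peaks at 3 of 9 genes, 2 HE-specific and 3 ARE-specific. The HE-specific share of 40% was near the 40.8% of all listed peaks. The gene angptl4, for an inhibitor of lipoprotein lipase, had 2 ARE-specific peaks at its start. The one in exon 1 of 7, 183 bp from the TSS, had 8.08 in DP-R1lo and 6.92 in DP-R1hi, and the one in intron 3 of 6, 2459 bp from the TSS, had 6.45 and 4.58. The gene angptl2b had 1 HE-specific peak in intron 3 of 3, with 5.93 in DP-R1hi and 0.71 in DP-R1lo, a difference of 5.22, above that of every member peak in the HE-specific list. The 2 peaks of angptl2a, outside the rule for named genes, had opposite directions, with differences of 4.93, where DP-R1lo was at its lowest listed level, and −3.88.

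From the intron 4 peak of angpt1 to the promoter of tpmt.1, a thiopurine methyltransferase gene, 422 kb held 7 listed peaks. Of these, 6 were HE-specific, beside 40.8% of all listed peaks and 41.2% of those on chromosome 19, and the distal angpt1 peak was the exception. Beside the angpt1 peaks, these were 2 assigned to sdc2 (differences of 2.23 and 2.63) and the tpmt.1 promoter (1.43). The ends of this stretch were chosen after the values were seen, and the next listed peaks on either side, assigned to ext1b (−4.30, with DP-R1hi at its lowest listed level) and ext1c (−2.32), were ARE-specific. The count of 6 of 7 therefore depends on where the stretch was cut.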
